A study of Mus musculus with 6 samples.

Results

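The genes described here are the expressed mouse zinc finger genes whose symbols are Zfp followed by a number. They were chosen by their measured level, as all symbols of that form apart from Zfp36 with a mean of at least 1 CPM (read counts scaled to a common library total) over the 6 deposited libraries, which gave 252 of the 336 symbols of that form and of 24421 gene rows in all. The libraries came from whole-heart lysates of C57BL6/J mice aged 4 weeks, with no other treatment or allele in the labels. Cnot3 RIP was RNA that came down with an antibody against Cnot3, control IgG RIP was RNA that came down with a control antibody, and Input was RNA of heart lysate without precipitation. Each had 2 libraries. RIP, RNA immunoprecipitation, reads out which transcripts an antibody recovers, and Cnot3 belongs to CCR4-NOT, the complex that trims poly(A) tails from mRNAs. Whether the replicates are separate animals is not in the labels, and the p-values therefore speak only for the spread among the 6 libraries, which could be technical.

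A C2H2 zinc finger is a short protein module in which a pair of cysteines and a pair of histidines hold a zinc ion, and an array of such fingers can read a stretch of DNA. Many mammalian C2H2 genes sit in clusters of near copies and also encode a KRAB domain, which recruits the co-repressor TRIM28 and with it heterochromatin, above all on transposable elements and imprinted loci. Other genes of the family encode transcription factors, chromatin cofactors or proteins that bind RNA, and their mRNAs are often of low abundance. The symbol Zfp names a sequence feature and not a pathway, so the family mixes these roles. Zfp36, which the rule leaves out, encodes a protein with a finger of another type that binds AU-rich elements.

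The fingers recur in the coding sequence, and the arrays define the family. A finger is shown for each of the 6 genes that passed the test between Cnot3 RIP and control IgG RIP. It is the first within a single exon that has the shortest spacing between the paired cysteines and between the paired histidines. A finger of wider spacing may precede it. The codons of the metal-binding cysteines and histidines are in capitals. They lie on GRCm38 at chr2:170119977-170120039 (minus strand, Zfp217), chr13:67042069-67042131 (minus, Zfp712), chr7:30022724-30022786 (plus, Zfp568), chr9:20348662-20348724 (minus, Zfp560), chr13:67517949-67518011 (minus, Zfp87) and chr5:138145318-138145380 (minus, Zfp113), all in coding exons.
Zfp217: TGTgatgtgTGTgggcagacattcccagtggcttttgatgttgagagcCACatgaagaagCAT
Zfp712: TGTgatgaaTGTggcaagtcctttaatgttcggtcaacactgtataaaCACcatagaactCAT
Zfp568: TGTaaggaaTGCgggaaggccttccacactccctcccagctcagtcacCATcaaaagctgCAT
Zfp560: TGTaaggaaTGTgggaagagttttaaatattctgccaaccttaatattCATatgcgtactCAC
Zfp87: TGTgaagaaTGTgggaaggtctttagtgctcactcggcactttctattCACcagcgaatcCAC
Zfp113: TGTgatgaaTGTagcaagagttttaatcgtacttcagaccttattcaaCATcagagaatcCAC

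Each of the same 6 transcripts also held at least 1 ATTTA pentamer, the core of AU-rich elements, in its 3′ UTR. So did 79.9% of the Zfp genes and 66.5% of all tested genes with a coding transcript. A short site of each of the 6 transcripts is shown because CCR4-NOT can be brought to mRNAs through proteins that bind such elements. The sites mark letters only and carry no measurement of binding. Capitals mark the stretch TTATTTA, or ATTTA where the longer stretch was not found. On GRCm38 the sites lie at chr2:170108703-170108725 (minus strand, Zfp217), chr13:67038772-67038794 (minus, Zfp712), chr7:30024225-30024247 (plus, Zfp568), chr9:20345424-20345446 (minus, Zfp560), chr13:67515978-67515998 (minus, Zfp87) and chr5:138142584-138142606 (minus, Zfp113).
Zfp217: gacatgctTTATTTAtgatatat
Zfp712: tttgccttTTATTTAttgtattt
Zfp568: agggcaggTTATTTAccaactat
Zfp560: cctttttcTTATTTAattgtctc
Zfp87: ttggagagATTTAgaagtagg
Zfp113: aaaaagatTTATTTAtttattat

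Total depth was 19176056 and 25567544 reads for Cnot3 RIP, 18032715 and 17283203 for control IgG RIP and 15713318 and 33479580 for Input. Most were Rn45s, the ribosomal RNA precursor, at 53.1% and 51.1% for Cnot3 RIP, 60.2% and 59.4% for control IgG RIP and 78.3% and 79.2% for Input. Values below are therefore scaled CPM, CPM corrected with TMM factors for such differences in composition, and a fold change is relative to the typical gene of the same libraries. A median Zfp gene had 131.5 and 188.5 reads in the Cnot3 RIP libraries, 75 and 87 for control IgG RIP and 42 and 76.5 in Input, with Input replicate 1 the lowest. Fewer than 10 reads were found for 0 and 0 genes in Cnot3 RIP, 4 and 0 for control IgG RIP and 12 and 4 for Input. Markers of the heart were present, with 6 cardiomyocyte genes summing to 23100 to 24800 scaled CPM for Cnot3 RIP, 18300 to 34300 for control IgG RIP and 17000 to 20000 for Input. No marker of cardiomyocytes, endothelium, fibroblasts, smooth muscle and pericytes, leukocytes, red blood cells or nerve passed the test between Cnot3 RIP and control IgG RIP, but 4 of 5 red blood cell genes, all haemoglobin chains, are listed at 0 in every library. In whole-heart lysate fewer cells of a type and less RNA per cell cannot be told apart.

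The mean over all libraries chose the members, so each group had a part in the choice. All 252 genes had at least 1 deposited CPM as a mean of the Cnot3 RIP libraries, while 7 were below it in control IgG RIP and 42 in Input. Just inside the limit were Zfp939, Zfp82 and Zfp850 with means of 1.01, 1.03 and 1.05 CPM, and just outside were Zfp511, Zfp820 and Zfp108 with 0.996, 0.946 and 0.932 CPM. The 84 symbols under the limit included 43 that could be tested. Every one of the 252 passed the filter on low values. Because a gene could reach the limit through the group where it is high, counts and medians over the family are a description and not evidence of enrichment; choosing the genes by Input alone, which neither RIP group enters, left 210 genes with a median log2 fold change of 0.29 between Cnot3 RIP and control IgG RIP.

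Zfp106 was the most abundant gene of the family on either scale. It encodes an RNA-binding protein needed for motor neuron upkeep in mice, and it had 314 and 368 scaled CPM in Cnot3 RIP, against 401 and 315 in control IgG RIP, with 381 and 488 in Input. Cnot3 RIP and control IgG RIP overlapped, with a log2 fold change of −0.06 between Cnot3 RIP and control IgG RIP (adjusted p = 0.949, limma). Per kb of exon, Zfp106 had 32.7 scaled CPM for Cnot3 RIP, 34.3 for control IgG RIP and 41.7 for Input. No other member came near that level in Input, where Zfp445, a KRAB gene that keeps imprints in mouse and human, followed with 6.71 scaled CPM per kb and Zfp651 with 6.70.

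Zfp445 had 77.7 and 116 scaled CPM in Cnot3 RIP, against 107 and 71.3 in control IgG RIP, with 50.7 and 48.6 in Input. Both RIP groups were above Input and overlapped each other, and none of the 3 comparisons passed the test. Zfp871 had 98.6 and 134 scaled CPM in Cnot3 RIP, against 59.3 and 69.6 in control IgG RIP, with 54.0 and 51.7 in Input. Its Cnot3 RIP libraries were above all others, and the difference passed against Input (log2 fold change 1.12, adjusted p = 0.0265, limma) but not against control IgG RIP (0.84, adjusted p = 0.113 by limma and 0.0497 by DESeq2). Zfp592 had 36.3 and 78.7 scaled CPM in Cnot3 RIP, against 33.3 and 27.9 in control IgG RIP, with 22.8 and 30.9 in Input, a spread within Cnot3 RIP wider than its distance to the other groups. Zfp651 was listed at 39.9 and 38.5 scaled CPM in Cnot3 RIP, against 31.3 and 39.0 in control IgG RIP, with 44.8 and 49.8 in Input, and passed no test.

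Setting Cnot3 RIP against control IgG RIP asks which transcripts came down with the Cnot3 antibody above the background of precipitation. Of the 252 genes, 6 were higher in Cnot3 RIP and 0 were lower (adjusted p under 0.05, limma on log2 of scaled CPM plus 0.25, Benjamini-Hochberg over 13010 tested genes). That is 2.38% of the family, against 1.54% of all tested genes in the higher direction and 0.277% in the lower. At p under 0.05 before adjustment, limma had 59 higher (23.4%; 10.9% of all tested genes) and 10 lower (3.97%; 6.33% of all tested genes). On the recovered reads, edgeR's quasi-likelihood test called 8 higher (3.17%; 1.86% of all tested genes) and 0 lower (0.415% of all). DESeq2 called 21 higher (8.33%; 4.4% of all tested genes) and 3 lower (1.19%; 1.25% of all). Below, a gene is called, or passes, by limma unless another tool is named. The family as a whole lay to the right of other genes: its median log2 fold change was 0.26, a fold of 1.19, against 0 for all tested genes, and 179 of 252 were above 0. Both Cnot3 RIP libraries were above both control IgG RIP libraries for 124 genes (49.2%; 24% of all tested genes), and below both for 38 (15.1%; 21.8% of all tested genes).

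**Figure D1:**
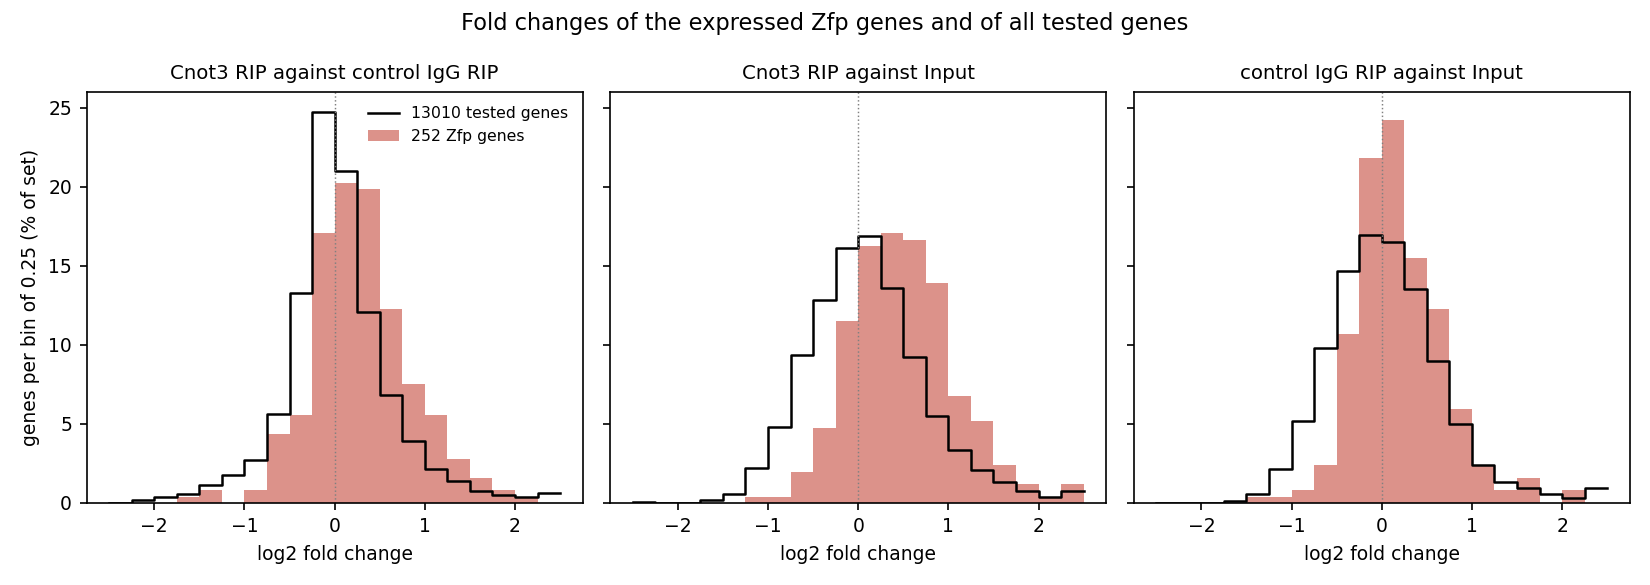
Distribution of log2 fold changes of the 252 expressed Zfp genes (red bars) and of all 13010 tested genes (black line) in the 3 comparisons, as the percent of each set in bins of 0.25 on the log2 axis; the outermost bins also hold values beyond the axis. The red bars lie to the right of the black line, with family medians of 0.26, 0.45 and 0.16 from left to right.

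The shift was unequal between libraries and between levels. Over the mean of control IgG RIP, the family's median was 0.16 in Cnot3 RIP replicate 1 and 0.38 in replicate 2. By mean level, the 84 genes of lowest level had a median of 0.16, the 84 in the middle 0.26 and the 84 of highest level 0.39. The SD of the log2 difference between replicates over the family was 0.40 in Cnot3 RIP, against 0.42 in control IgG RIP over single genes, with 0.37 in Input. The 43 tested symbols under the limit had a median of 0.05, with 0 called in either direction by limma, edgeR or DESeq2 and 1 higher and 1 lower before adjustment.

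Zfp217 encodes a transcription factor whose human homolog works with CtBP and CoREST repressor complexes and is amplified in breast tumours. It had 33.4 and 47.5 scaled CPM in Cnot3 RIP, against 9.69 and 10.8 in control IgG RIP, with 8.59 and 9.42 in Input. Both Cnot3 RIP libraries stood above the other 4, which lay close together, and the log2 fold change was 1.93 (SE 0.24, a fold of 3.82, adjusted p = 0.0133, limma) against control IgG RIP and 2.12 against Input. Zfp568 is a KRAB gene required for gastrulation in mice, where it represses a placental Igf2 transcript. Its values were 67.4 and 115 scaled CPM in Cnot3 RIP, against 21.2 and 27.6 in control IgG RIP, with 19.9 and 16.4 in Input, the most abundant of the 6 genes. Its log2 fold change was 1.85 (SE 0.29, a fold of 3.60, adjusted p = 0.0259, limma) against control IgG RIP and 2.26 against Input.

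Zfp712, with 20 fingers and a KRAB core, showed the widest difference. It had 6.98 and 10.9 scaled CPM in Cnot3 RIP, against 1.5 and 1.81 in control IgG RIP, with 2.03 and 1.26 in Input. This was a log2 fold change of 2.24 (SE 0.33, a fold of 4.74, adjusted p = 0.0198, limma) against control IgG RIP. These levels rested on 196 and 365 reads in Cnot3 RIP, against 26 and 40 in control IgG RIP, with 22 and 26 in Input. Zfp560, also with a KRAB core, had 7.30 and 10.5 scaled CPM in Cnot3 RIP, against 2.42 and 3.22 in control IgG RIP, with 1.48 and 1.35 in Input. Its 3 groups did not overlap, and the log2 fold change was 1.57 (SE 0.29, adjusted p = 0.0350, limma) against control IgG RIP and 2.44 against Input.

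Zfp87, with a KRAB core and 16 fingers, had 4.77 and 6.15 scaled CPM in Cnot3 RIP, against 1.56 and 2.13 in control IgG RIP, with 2.49 and 2.17 in Input. Control IgG RIP lay just below Input, and the log2 fold change was 1.45 (SE 0.28, adjusted p = 0.0400, limma) against control IgG RIP and 1.14 against Input. Zfp113, in which no KRAB core was found, had 12.6 and 21.5 scaled CPM in Cnot3 RIP, against 5.71 and 6.57 in control IgG RIP, with 4.80 and 5.26 in Input. Its log2 fold change was 1.39 (SE 0.28, adjusted p = 0.0474, limma) against control IgG RIP and 1.66 against Input. All 6 genes also passed the test against Input, a comparison that shares the Cnot3 RIP libraries.

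**Figure D2:**
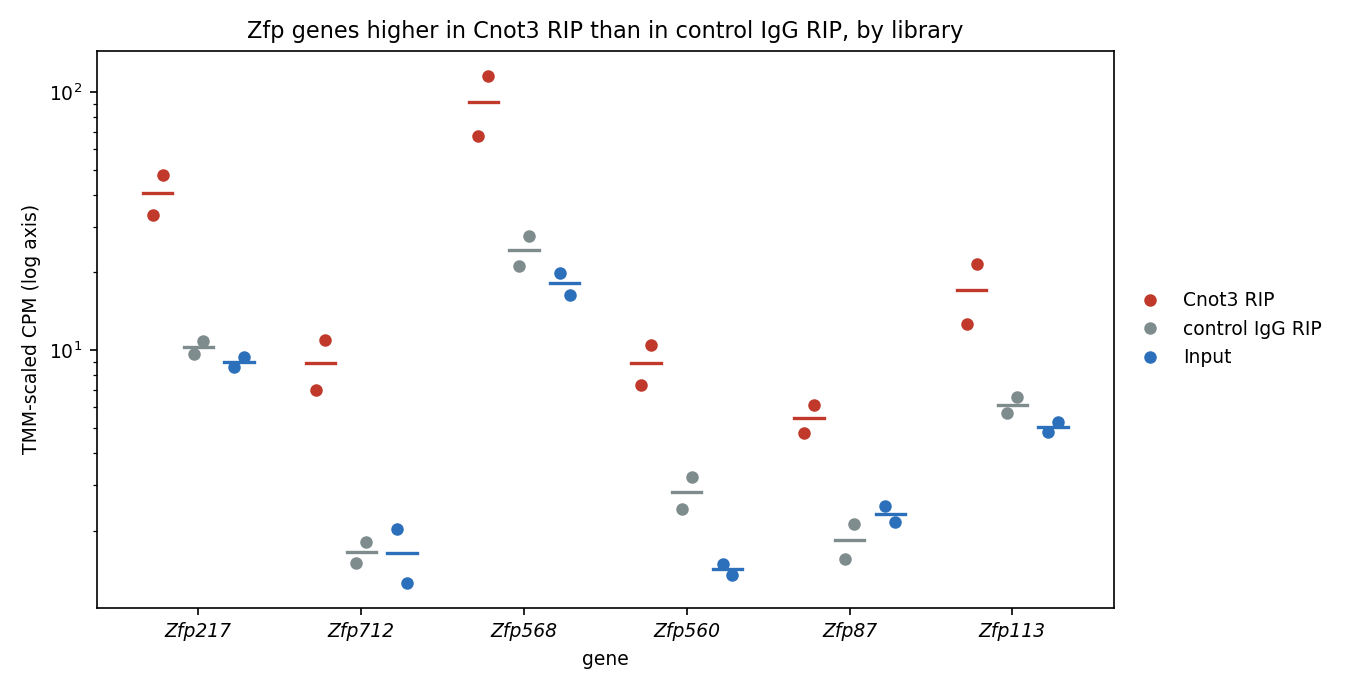
Scaled CPM on a log axis of the 6 genes that passed the test between Cnot3 RIP and control IgG RIP; points are libraries and lines are group means (2 libraries each). The Cnot3 RIP points lie above all control IgG RIP and Input points for each gene, from 4.77 for Zfp87 up to 115 for Zfp568.

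These calls depended on single libraries. Without control IgG RIP replicate 1, none of the 6 passed, nor was any other tested gene called higher. Without Cnot3 RIP replicate 2 only Zfp217 passed, and 1 gene of the family was higher in all (0.397%; 0.222% of all tested genes). Without Cnot3 RIP replicate 1, all 6 passed and 37 genes of the family were higher (14.7%; 7.78% of all tested genes) and 2 lower (0.794%; 1.96% of all). When control IgG RIP replicate 2 was left out, Zfp217, Zfp712 and Zfp568 passed, and without either Input library all except Zfp87 and Zfp113 passed. The direction was the same in each of these fits, from 1.69 to 2.2 on the log2 scale for Zfp217 and from 1.02 to 1.78 for Zfp113. Where a group is left with 1 library, that library is assumed to vary like the other groups. With no filter on low values only Zfp217 passed.

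**Figure D3:**
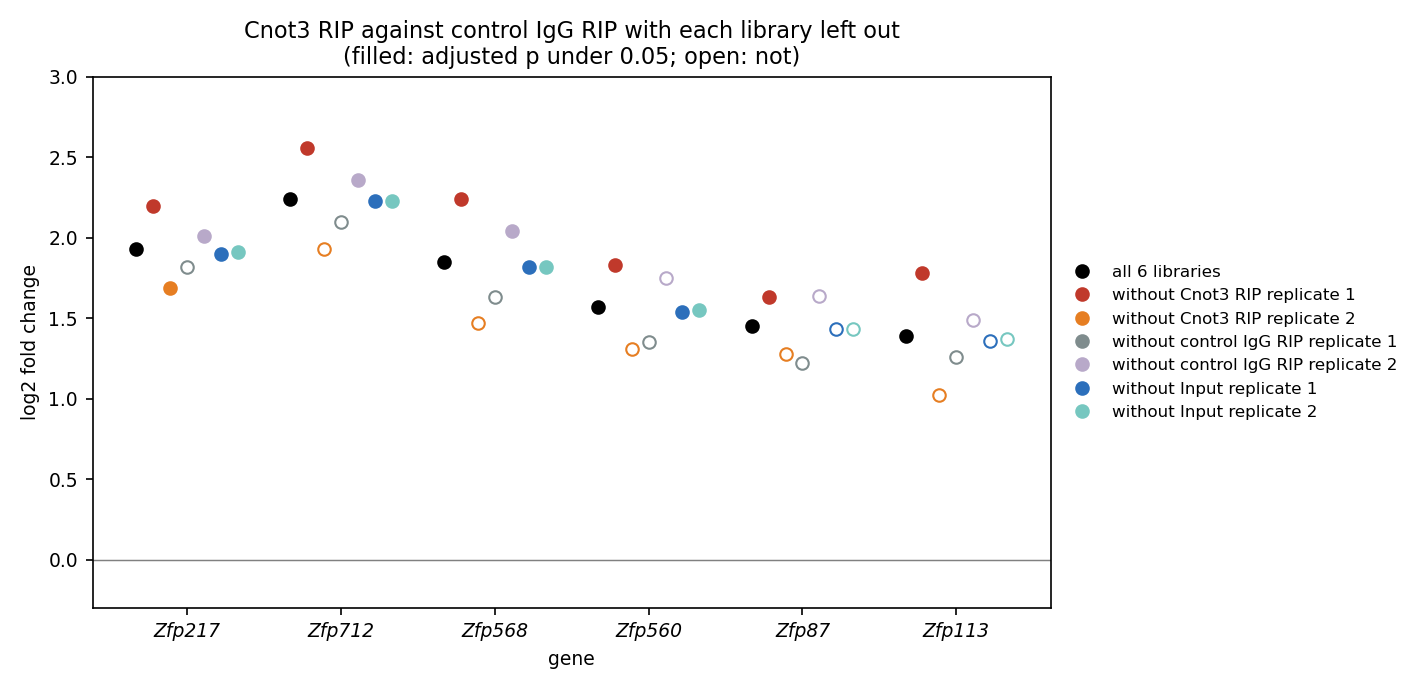
Log2 fold change between Cnot3 RIP and control IgG RIP for the 6 genes, with all 6 libraries and with each library left out in turn; filled points have an adjusted p under 0.05. Every point is above 0, and all points without control IgG RIP replicate 1 are open.

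The 3 genes of smallest p among those lower in Cnot3 RIP were high in control IgG RIP itself. DESeq2 called all 3 lower, edgeR none, and limma none with all 6 libraries and no replicate block. Zfp945, a KRAB gene, had 11.4 and 9.35 scaled CPM in Cnot3 RIP, against 31.4 and 20.2 in control IgG RIP, with 9.24 and 5.89 in Input. Its log2 fold change between Cnot3 RIP and control IgG RIP was −1.26 and did not pass (adjusted p = 0.0747, limma), while that between control IgG RIP and Input was 1.74 and did (adjusted p = 0.0229). Zfp950 had 15.6 and 8.27 scaled CPM in Cnot3 RIP, against 30.4 and 33.2 in control IgG RIP, with 10.6 and 5.55 in Input. The same log2 fold changes were −1.46 (adjusted p = 0.0810, limma) and 2.01 (adjusted p = 0.0256). Zfp931 had 1.75 and 1.5 scaled CPM in Cnot3 RIP, against 8.88 and 3.49 in control IgG RIP, with 0.924 and 1.11 in Input, at −1.65 (adjusted p = 0.0792, limma) and 2.21 (adjusted p = 0.0256). Of its transcript 65.3% of 36-base stretches also occur in other genes, so its reads may be split or shared and its level is uncertain. The next in order of p, Zfp407, Zfp607 and Zfp692, had log2 fold changes of −0.72, −0.68 and −0.75 and did not pass either. With the replicate block, limma called Zfp945 (adjusted p = 0.0329) and Zfp950 (adjusted p = 0.0381) lower. These comparisons share the control IgG RIP libraries.

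The comparison of control IgG RIP with Input shows what precipitates without the Cnot3 antibody. Of the family, 8 genes were higher in control IgG RIP (3.17%; 2.58% of all tested genes) and 2 were lower (0.794%; 1.49% of all tested genes). Both control IgG RIP libraries were above both Input libraries for 100 genes (39.7%; 29.7% of all tested genes) and below them for 38 (15.1%; 29.3% of all tested genes). The median log2 fold change was 0.16, against 0.01 for all tested genes. Zfp607, the gene of smallest p, had 5.48 and 6.03 scaled CPM in control IgG RIP, against 1.75 and 1.59 in Input, a log2 fold change of 1.64 (adjusted p = 0.0154, limma). Zfp407, which controls glucose uptake genes in mouse adipocytes, had 36.6 and 29.0 in control IgG RIP, against 12.4 and 12.6 in Input (1.37). Zfp521, a regulator of progenitor cell fate in blood, bone and brain, had 26.9 and 31.5 scaled CPM in control IgG RIP, against 13.5 and 12.9 in Input (1.13). Zfp692 and Zfp292 were the others, at log2 fold changes of 1.49 and 1.13. The groups did not overlap for any of these 5.

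These calls also rested on single libraries: most or all of the 8 were lost when a control IgG RIP or Input library was left out. Fewer of all tested genes were called higher in those fits too. All 8 passed without either Cnot3 RIP library, and each kept its direction in all 6 fits.

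The 2 genes lower in control IgG RIP were Zfp691 and Zfp358. Neither passed when a control IgG RIP or an Input library was left out, and both did without either Cnot3 RIP library. Zfp691 had 3.98 and 3.72 scaled CPM in control IgG RIP, against 9.79 and 9.56 in Input, a log2 fold change of −1.28 (adjusted p = 0.0295, limma). Zfp358 had 4.15 and 4.03 scaled CPM in control IgG RIP, against 8.59 and 10.1 in Input (−1.14, adjusted p = 0.0358). Both Input libraries were above all 4 RIP libraries for both genes. Next by p and not passing were Zfp91, Zfp524, Zfp672 and Zfp39, at −0.68, −0.91, −0.63 and −0.76.

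**Figure D4:**
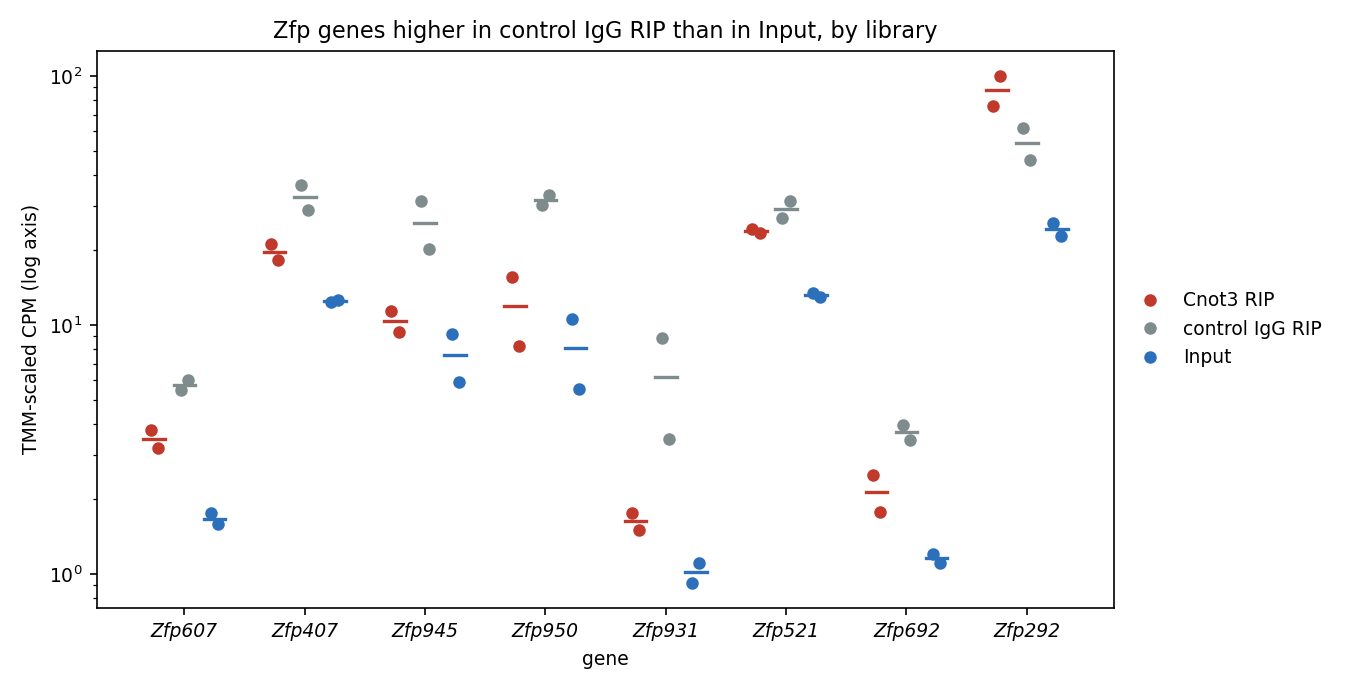
Scaled CPM on a log axis of the 8 genes that passed the test as higher in control IgG RIP than in Input; points are libraries and lines are group means (2 libraries each). Control IgG RIP lies above Input for each gene, and above Cnot3 RIP for all except Zfp292, which had 75.9 and 100 scaled CPM in Cnot3 RIP.

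Against Input, Cnot3 RIP differed for more genes of the family. Of the 252, 36 were higher in Cnot3 RIP (14.3%; 5.86% of all tested genes) and 2 were lower (0.794%; 2.47% of all tested genes). Both Cnot3 RIP libraries were above both Input libraries for 151 genes (59.9%; 30.6% of all tested genes) and below them for 23 (9.13%; 26.9% of all tested genes). The median log2 fold change was 0.45, against 0.06 for all tested genes, and 204 of 252 were above 0. This comparison does not separate the Cnot3 antibody from what any precipitation recovers, and it shares libraries with both comparisons above. Its count of genes higher rested on few libraries. It was 0 without Input replicate 2 (0.0737% of all tested genes), 7 without Input replicate 1 (2.78%; 0.72% of all) and 7 without Cnot3 RIP replicate 2 (2.78%; 1.17% of all). It was 62 without Cnot3 RIP replicate 1 (24.6%; 10.9% of all), 18 without control IgG RIP replicate 1 (7.14%; 3.45% of all) and 23 without control IgG RIP replicate 2 (9.13%; 3.86% of all). The 2 genes lower were lost in each of these 6 fits.

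After the 6 genes above, those of smallest p against Input were Zfp26, Zfp292, Zfp516, Zfp697, Zfp748, Zfp606 and Zfp462. Zfp26 had 34.7 and 55 scaled CPM in Cnot3 RIP, against 17.5 and 19.4 in control IgG RIP, with 11.3 and 10.7 in Input. Its log2 fold change was 1.97 against Input (adjusted p = 0.00870, limma) and 1.24 against control IgG RIP, which just missed the threshold (adjusted p = 0.0501, against 0.0446 by edgeR and 0.00225 by DESeq2). Zfp292, whose human homolog is mutated in neurodevelopmental disorders, had 75.9 and 100 scaled CPM in Cnot3 RIP, against 61.9 and 46.1 in control IgG RIP, with 25.8 and 22.8 in Input. Its 3 groups were in that order without overlap, at 1.84 against Input and 0.71 against control IgG RIP (adjusted p = 0.180, limma). Zfp516, an activator of the brown fat gene Ucp1 in mice, had 26.8 and 32.0 scaled CPM in Cnot3 RIP, against 9.98 and 15.3 in control IgG RIP, with 10.8 and 8.45 in Input (1.59 against Input, adjusted p = 0.0148). Zfp697 had 17.0 and 28.3 scaled CPM in Cnot3 RIP, against 18.7 and 13 in control IgG RIP, with 6.74 and 6.66 in Input, so that its RIP groups overlapped each other and both were above Input. Zfp748, Zfp606 and Zfp462 had log2 fold changes against Input of 1.40, 1.52 and 1.48. The lower pair was again Zfp691 (3.92 and 5.31 scaled CPM in Cnot3 RIP, 9.79 and 9.56 in Input) and Zfp358 (4.52 and 4.86 in Cnot3 RIP, 8.59 and 10.1 in Input), at −1.04 and −0.96. Scaling by library size alone put Zfp358 at 0.08, the opposite direction, while the median of all tested genes moved to 1.02. Zfp35, Zfp91, Zfp672 and Zfp637, at −0.71, −0.54, −0.51 and −0.57, did not pass and were above 0 with that scaling.

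By role, genes for proteins that act on RNA or ribosomes showed no call between Cnot3 RIP and control IgG RIP by limma, edgeR or DESeq2, with 0 higher and 3 lower by limma before adjustment. Among all tested genes, limma called 1.54% higher and 0.277% lower in that comparison, and before adjustment 10.9% and 6.33%. With 9 genes, the absence of a call therefore says little about this role. The 9 tested genes, 8 of them in the family, had a median log2 fold change of −0.14 between Cnot3 RIP and control IgG RIP, and 2 were above 0. Zfp346, which encodes a protein that binds double-stranded RNA, had 8.23 and 7.13 scaled CPM in Cnot3 RIP, against 11.7 and 11.1 in control IgG RIP, with 8.40 and 7.82 in Input (−0.56 against control IgG RIP, adjusted p = 0.230, limma). Zfp638, which promotes adipocyte differentiation in mice, had 34.6 and 35.3 scaled CPM in Cnot3 RIP, against 61.2 and 45.2 in control IgG RIP, with 31.0 and 25.5 in Input. Zfp207, which encodes the spindle and kinetochore protein BuGZ, had 30.5 and 20.6 in Cnot3 RIP, against 37.9 and 36.9 in control IgG RIP, with 27.2 and 22.6 in Input. In all 3 the control IgG RIP libraries were above both other groups, and none of the 3 passed the test against Cnot3 RIP. Zfp830, a gene of pre-mRNA splicing, was at 0.48.

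The list of chromatin, transcription and signalling regulators without a KRAB box had 27 tested genes, 26 of them in the family. Zfp217 was its only gene called by limma between Cnot3 RIP and control IgG RIP (edgeR also called Zfp281, and DESeq2 Zfp281 and Zfp516). The list median was 0.39, with 20 of 27 above 0. Against Input, 8 of 27 were higher in Cnot3 RIP and 0 lower, where 5.86% of all tested genes were higher and 2.47% lower. Zfp281, which represses Nanog in mouse embryonic stem cells, had 22.1 and 34.2 scaled CPM in Cnot3 RIP, against 12.9 and 9.97 in control IgG RIP, with 11 and 10.4 in Input. Its log2 fold change of 1.26 against control IgG RIP had an adjusted p of 0.0521 and that of 1.34 against Input passed (adjusted p = 0.0230, limma). Zfp516 at 1.23 (adjusted p = 0.0583) and Zfp395 at 0.81 (adjusted p = 0.163) followed. Among the 8 called against Input were Zfp462, which maintains heterochromatin in mouse stem cells, Zfp451, a SUMO ligase, Zfp521 and Zfp704.

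KRAB genes with a described target formed a list of 9 tested genes, 7 in the family, with a median of 0.31. Zfp568 was the only one called against control IgG RIP and against Input. Zfp809, which silences retroviruses in mouse embryonic cells, had 8.30 and 19.3 scaled CPM in Cnot3 RIP, against 10.5 and 7.66 in control IgG RIP, with 7.85 and 9.37 in Input. The log2 fold change of 0.49 turned to −0.10 without Cnot3 RIP replicate 2. Zfp30, a regulator of neutrophil recruitment in mouse airways, was at 0.31 and Zfp708 at 1.15 (adjusted p = 0.153, limma), all of whose transcript is shared with the entry Gm28557. The pattern used here found no KRAB core in Zfp708, so the split by KRAB core below counts it among the genes without.

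The partners through which KRAB proteins act are given for description. Of 21 tested genes for TRIM28 and heterochromatin partners, 0 passed in either direction between Cnot3 RIP and control IgG RIP by limma, edgeR or DESeq2 (1 higher and 0 lower before adjustment), with a median of −0.11 and a range from −0.32 to 0.80. Against Input, Dnmt3a, a DNA methyltransferase, was higher at 1.16 and Atf7ip, a cofactor of the methyltransferase SETDB1, at 1.0. None was lower there. Limma called 5.86% of all tested genes higher in Cnot3 RIP against Input and 2.47% lower. Other zinc finger families, described for comparison with no test of the difference, had medians between Cnot3 RIP and control IgG RIP of 0.47 for 38 tested Zbtb genes (5 higher, 0 lower), 0.37 for 18 Zscan and Zkscan genes (0 and 0), 0.44 for 20 Zfp symbols with a letter suffix (2 and 0) and 1.19 for 17 Klf and Sp genes (6 and 0). Left out of these, after their values were seen, were Zfp36l1, Zfp36l2 and the pseudogene symbol Zfp862-ps, and Sp100 and Sp110, which matched by symbol only. With them the medians were 0.44 over 23 genes (4 and 0) and 1.19 over 19 (6 and 0). Of all tested genes, 1.54% were higher and 0.277% lower between Cnot3 RIP and control IgG RIP. Lists of 18 or 21 genes without a call are near those shares.

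What the transcripts hold was read from GENCODE M21 on GRCm38, in which 249 of the 252 genes had a coding transcript; Zfp191, Zfp607 and Zfp939 had none under that name. A C2H2 finger was found in 245, with a median of 11 and up to 37 fingers in Zfp142. A KRAB core was found in 96 and not found in 153. Between Cnot3 RIP and control IgG RIP both classes had the same median of 0.26, with 4 and 2 genes higher, where 1.54% of all tested genes were. Between control IgG RIP and Input the medians were 0.26 with a KRAB core and 0.05 without, and between Cnot3 RIP and Input 0.58 and 0.36. Median Input levels were 2.64 scaled CPM with a KRAB core and 4.79 without. The 61 genes with 15 or more fingers had a median of 0.38 between Cnot3 RIP and control IgG RIP and 3 of the 6 calls, and the 32 genes with 0 to 4 fingers had 0.16 and no call by limma (6 higher and 2 lower by limma before adjustment; 1 higher by edgeR and 2 by DESeq2).

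The fold changes were larger for transcripts with 4 or more ATTTA motifs. Motifs were read on the sense strand of the 3′ UTR only, overlapping matches included. The 91 genes with 4 or more ATTTA had a median log2 fold change of 0.43 between Cnot3 RIP and control IgG RIP, 4 of the 6 calls and 73 genes above 0. The 108 genes with 1 to 3 had 0.16 and 2 calls, and the 50 with none had 0.17 and 0 calls by limma (5 higher and 5 lower by limma before adjustment; 0 by edgeR; 1 higher and 1 lower by DESeq2). Over all tested genes with a coding transcript the same classes gave 0.18, 0.02 and −0.10, and 3.20%, 1.45% and 0.571% of them were higher. Between Cnot3 RIP and Input the medians were 0.73, 0.35 and 0.34 for the Zfp genes and 0.32, 0.04 and −0.14 for all tested genes. Between control IgG RIP and Input they were 0.21, 0.08 and 0.08, and 0.09, −0.04 and −0.09. At least 1 ATTTA was present in 79.9% of the Zfp genes and in 66.5% of all tested genes with a coding transcript. Per kb of 3′ UTR the densities were 1.92 and 1.83, and median 3′ UTR lengths were 1351 and 1011 bases.

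Length moved with the motif count: the median transcript had 4751 bases with 4 or more ATTTA, 3371.5 with 1 to 3 and 2543 with none. The longest 83 of the Zfp transcripts (over 4300 bases) had a median of 0.39 between Cnot3 RIP and control IgG RIP. The middle class had 0.27 and the shortest (up to 3072 bases) 0.10. All tested genes in the same length classes had 0.07, 0.04 and −0.02. Of the 35 matched Zfp genes higher in Cnot3 RIP against Input, 23 were among the longest, 10 in the middle class and 2 among the shortest. The same classes of all tested genes held 430, 150 and 143 genes higher there (12.1%, 5.95% and 2.4%). Medians in that comparison were 0.73, 0.35 and 0.36 for the Zfp genes and 0.37, 0.12 and −0.21 for all tested genes. Between control IgG RIP and Input they were 0.24, 0.04 and 0.08, and 0.28, 0.04 and −0.24. Motif number and length were not separated, and their part in the result was not tested. The nonamer TTATTTATT, which contains ATTTA, was present in 25 of 249 Zfp genes and in 7.41% of all tested genes with a coding transcript, and 2 of the 6 called genes had it, Zfp712 and Zfp113. TGTANATA, the motif of Pumilio proteins, was present in 30.9% and 24.8%, with 4 copies in Zfp217 and 2 in Zfp712.

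**Figure D5:**
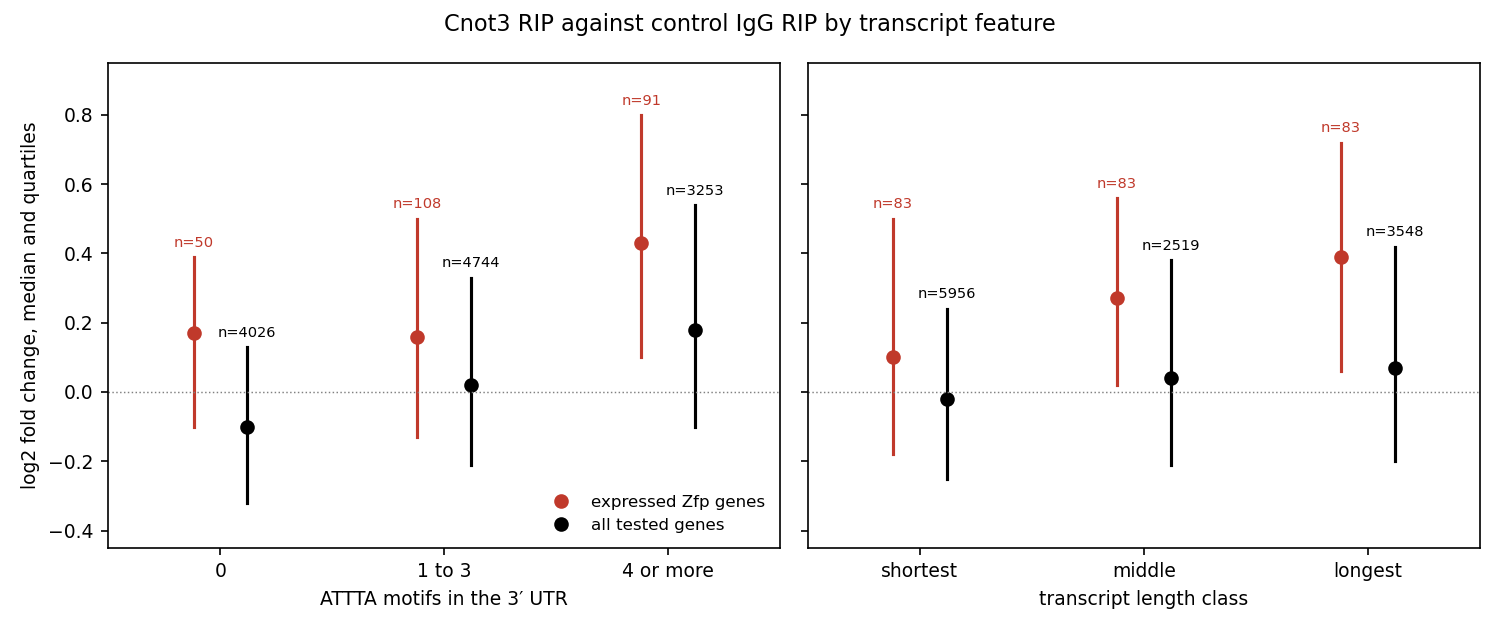
Median (point) and quartiles (line) of the log2 fold change between Cnot3 RIP and control IgG RIP by number of ATTTA motifs in the 3′ UTR (left) and by transcript length class (right), for the expressed Zfp genes (red) and all tested genes with a coding transcript (black), with the number of genes. The Zfp median was 0.43 with 4 or more motifs and 0.39 in the longest class.

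Neighbouring genes did not all behave alike. Members no more than 1 Mb apart formed clusters, and the 4 largest are described. A cluster of 13 genes on chromosome 13 (GRCm38 chr13:67038596-67827002, from Zfp712 to Zfp273) had a median of 0.76 between Cnot3 RIP and control IgG RIP, with 11 above 0 and Zfp712 and Zfp87 called. Its log2 fold changes ranged from −0.45 in Zfp595 to 2.24 in Zfp712. Against Input all 13 were above 0 with 4 called (Zfp712, Zfp87, Zfp748 and Zfp458). Limma called 1.54% of all tested genes higher in Cnot3 RIP against control IgG RIP and 5.86% against Input. Above 0 were 49.7% and 53.8% of them. The cluster's median Input level was 1.53 scaled CPM. Genes of so low a level could reach the 1 CPM limit through Cnot3 RIP, so its medians and counts are a description only. Part of this cluster shares sequence with other genes: Zfp58 (1.59) shared 50.5% of its 36-base stretches with other genes, Zfp85 (1.48) 40.7% and Zfp273 (1.70) 34.8%, and none of these passed by limma or edgeR, while DESeq2 called Zfp58 and Zfp273 higher. A cluster of 10 genes on chromosome 17 from Zfp871 to Zfp414 had a median of 0.74, with 8 above 0 and 0 called by limma (5 higher and 0 lower by limma before adjustment; 0 by edgeR and 1 higher by DESeq2).

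The other 2 of these clusters had lower medians. The cluster of 15 genes on chromosome 17 from Zfp160 to Zfp213, which holds Zfp945, had a median of −0.06 and 6 genes above 0, and a KRAB core was found in 12 of them. The cluster of 13 genes on chromosome 7 from Zfp84 to Zfp146, which holds Zfp568, had a median of 0.49 and 11 above 0. Over the whole family, 33 genes shared more than 20% of their 36-base stretches with other genes and 0 of these were called between Cnot3 RIP and control IgG RIP by limma (10 higher and 2 lower by limma before adjustment; 0 by edgeR; 4 higher and 1 lower by DESeq2). In that comparison limma called 1.54% of all tested genes higher and 0.277% lower. Genes of 1 cluster share sequence and are not replicates of each other.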

How the data were processed

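RNA was sequenced in 6 libraries, 2 of Cnot3 RIP, 2 of control IgG RIP and 2 of Input. CPM per gene symbol were deposited by the authors in 1 table. The submitters' processing notes name mm10, edgeR, TopHat2 2.1.0, Bowtie2 2.2.5, FastQC and CASAVA 1.8. The counter, annotation, kit and strand setting were not given in any source used here, so a gene and an overlapping antisense gene cannot be told apart. In each library 100% of the deposited CPM values were whole reads within 0.01 read. CPM were scaled with TMM factors from those reads in edgeR 4.0.16, then modelled as log2(scaled CPM + 0.25) in limma 3.58.1 under R 4.3.3 (trended empirical Bayes, all 6 libraries, 3 group means, no block, 3 residual and 6.24 prior degrees of freedom). This scale understates the change of low genes. Genes with 0.538 CPM in at least 2 libraries were kept, 13010 of 24421. A call is a Benjamini-Hochberg adjusted p under 0.05 over all of these. An exact permutation test of 2 libraries against 2 cannot go under p = 0.333 and was not run. Alternatives were other scalings, pseudocount 1, no filter, edgeR and DESeq2 1.42.0 on the recovered reads, a replicate block, each library left out, and other membership limits. The fit was tested on simulated data.

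The members and lists were chosen with earlier results of these data known. Named genes were, per comparison, the members called (up to 12 of smallest p in each direction), further members of smallest p up to 6 in a direction where fewer passed, the 8 most abundant, 3 on each side of the limit, and up to 4 per role list; the genes of the chromosome 13 cluster, Zfp142, and the genes called in lists outside the family were named after their values were seen. Fingers (C-x2-4-C-x12-H-x3-5-H) and the KRAB core were found by translating GENCODE M21 coding sequences, 1 transcript per gene with the longest coding sequence for fingers and any coding transcript for KRAB; a missed pattern does not show that a domain is absent. Shared sequence is the percent of a transcript's 36-base stretches found in another gene's transcripts. Floors and read numbers cover counting error only.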

Additional observations from a re-analysis of the deposited data

How the results depend on the processing

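With library size as the only scaling, all genes moved with the ribosomal share: the median of all tested genes became 0.30, 1.02 and 0.70 for Cnot3 RIP against control IgG RIP, Cnot3 RIP against Input and control IgG RIP against Input. The family then had medians of 0.56, 1.45 and 0.84, with 24 (9.52%), 223 (88.5%) and 101 (40.1%) higher and 0 lower in each. Of all tested genes, 4.55%, 59.6% and 33.7% were higher and 0.254%, 0.0538% and 0.0769% lower. Relative to the median of all genes, the excess of the family's median was similar to that with TMM. That scaling reversed named genes not called higher: against Input in Cnot3 RIP, Zfp358 (0.08), Zfp35 (0.29), Zfp91 (0.54), Zfp672 (0.55) and Zfp637 (0.43), and in control IgG RIP, Zfp91 (0.08) and Zfp672 (0.12). With no filter on low values, 1 gene (0.397% against 0.183% of all tested genes) was higher in Cnot3 RIP against control IgG RIP. Against Input, 17 (6.75% against 2.39%) were higher in Cnot3 RIP and 0 lower (0.553% of all). In control IgG RIP against Input, 7 (2.78% against 1.8%) were higher and 1 lower (0.397% against 0.548%). For Cnot3 RIP against control IgG RIP, DESeq2 called 21 higher (8.33% against 4.4%) and 3 lower (1.19% against 1.25%).

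Leaving out 1 library gave 0 to 37 higher and 0 to 2 lower for Cnot3 RIP against control IgG RIP (median 0.16 to 0.39), 0 to 62 higher and 0 lower for Cnot3 RIP against Input (0.35 to 0.57), and 0 to 12 higher and 0 to 2 lower for control IgG RIP against Input (0.08 to 0.15). The 12 higher (4.76%) and 2 lower (0.794%) in control IgG RIP against Input were found without either Cnot3 RIP library. Of all tested genes, 3.79% were higher and 2.88% lower there without Cnot3 RIP replicate 1. Without replicate 2 these shares were 3.77% and 2.76%. For Zfp809, against control IgG RIP, leaving out 1 library gave −0.10 (without Cnot3 RIP replicate 2) to 1.09. The cause was not tested. The replicate numbers were not taken as pairs, since the labels tie them to nothing and the deviations of same-numbered libraries from their group means did not all go together: they correlated at 0.34 between Cnot3 RIP and Input, but at −0.32 between Cnot3 RIP and control IgG RIP and −0.33 between control IgG RIP and Input. With the replicate block, the first comparison had 8 genes higher (3.17% against 2.24% of all tested genes) and 2 lower (0.794% against 0.715%). Cnot3 RIP against Input had 27 higher (10.7% against 4.94%) and 0 lower (1.28% of all). Control IgG RIP against Input had 6 higher (2.38% against 1.91%) and 1 lower (0.397% against 0.592%). The block was also fitted with the control IgG RIP numbers exchanged, chosen after seeing the data. The first comparison then had 30 higher (11.9% against 5.84% of all tested genes) and 3 lower (1.19% against 2.34%). Cnot3 RIP against Input had 68 higher (27% against 12.1%) and 2 lower (0.794% against 7.09%). Control IgG RIP against Input had 19 higher (7.54% against 8.07%) and 3 lower (1.19% against 6.3%). Of the 6 genes called between Cnot3 RIP and control IgG RIP, all kept their direction in every fit run. Other membership limits, among them choosing genes by the group outside the comparison (added after seeing the data, which drops Zfp560), left all counts within 1.5 times. Depth was lowest in Input replicate 1, where a median Zfp gene had 42 reads.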
